A study of Mus musculus with 4 samples.

Results

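Integrins, laminins and the proteins that link them in basement membranes were followed in the embryonic mouse heart. The genes were chosen by symbol: the integrin alpha and beta subunits, the laminin alpha, beta and gamma chains, and Nid1, Nid2, Hspg2, Agrn and Dag1. They numbered 36 of the 12393 genes with 1 annotated symbol on the array, with 14 integrin alpha subunits, 7 integrin beta subunits, 10 laminin chains and the 5 genes named. RNA came from the atrioventricular (AV) junction and the ventricular region of wild-type C57BL/6 embryos at embryonic days 10.5 to 11.0, and about 80 hearts went into the dissection. Total RNA of 230 ng for the AV junction and 250 ng for the ventricles was amplified before hybridisation. Each region was read on 2 Affymetrix MOE430A arrays, labelled replicate 1a and 1b. These arrays may be readings of 1 pool, which the labels do not settle, so the p-values below cover the spread between arrays and not the spread between hearts. No allele, transgene or agent distinguishes the groups, which differ in the region dissected.

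A basement membrane is a thin sheet of matrix on which epithelia and endothelia rest and which wraps each muscle cell. Laminins are trimers of 1 alpha, 1 beta and 1 gamma chain that polymerise into the first network of the sheet. Nidogens tie that network to type IV collagen, and the heparan sulphate proteoglycans perlecan (gene Hspg2) and agrin (gene Agrn) fill it. Cells hold the sheet through integrins, which are pairs of an alpha and a beta subunit, and through dystroglycan (gene Dag1). In the AV canal, endocardial cells leave their basement membrane and move into the cushions, while chamber muscle keeps its own.

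Most of these genes did not pass the test between regions, and the 6 that passed went both ways. Higher in the AV junction were the laminin chain gene Lama2 (3.06-fold), the nidogen gene Nid1 (1.81-fold) and the integrin subunit genes Itgb5 (1.54-fold) and Itga6 (1.52-fold). Lower in the AV junction were the basement membrane proteoglycan genes Agrn (2.15-fold) and Hspg2 (1.76-fold). Of the 36 genes 25 were bright enough to test, with 4 higher, 2 lower and 19 that did not pass (limma, Benjamini-Hochberg adjusted p of at most 0.05 over 13403 probe sets). The 6 that passed are 24% of those tested, where 15.0% of all 8410 genes tested passed, 8.47% higher and 6.56% lower. The median log2 fold was 0.05 for the members and −0.06 for all genes tested. Every log2 fold sets the AV junction over the ventricular region and is computed on log2 of scaled intensity plus 50, which understates the change of dim genes. In whole dissected tissue, fewer cells of a type and less RNA per cell cannot be told apart.

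The dissection was described by markers of the regions and of other tissues. These lists were chosen with earlier results of these data known and are not an independent check. All 6 chamber muscle markers were lower in the AV junction and 6 of 8 cushion mesenchyme markers higher. The summed intensity of 8 cushion markers was 11638 to 13991 on the AV arrays and 3893 to 3932 on the ventricular arrays. Sums given here cover every gene of a list with a probe set, tested or not. All 3 liver genes tested were also higher in the AV junction (sums over 5 genes of 6430 to 6973 against 245 to 287). So were 2 of 3 tested leukocyte genes (sums over 8 genes of 3845 to 3974 against 1736 to 1863). Lower there were 2 of 5 erythroid genes (1507 to 1762 against 5201 to 5426) and 2 of 7 epicardial genes (3540 to 3715 against 4732 to 4756). Of 6 tested endothelial genes 1 was higher, Tek at 0.98. The other 5 did not pass, at −0.71 (Emcn, lower on both AV arrays) to 0.34 (Flt1). The endothelial list of 8 genes summed to 3780 to 4146 on the AV arrays, against 2933 to 3207. Tek alone averaged 1247 on the AV arrays and 600.1 on the ventricular arrays. The part of these cell types in the results below was not tested. Background was taken as the brightest Bacillus subtilis control of each array, which read 58.6 and 52.6 for the AV junction and 97.9 and 104.3 for the ventricular region. The 3'/5' intensity ratios of actin and Gapdh were between 15.0 and 23.4, so the signal of both genes was far stronger at the 3' end. Whether such a bias bears on dim or disagreeing probe sets of the members was not tested.

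Among the laminin chains, the alpha chain gene Lama2 differed between regions. Lama2 encodes the alpha chain of the laminin around muscle fibres, whose loss in humans causes a congenital muscular dystrophy. It read 681.2 and 547.3 on the AV arrays, against 130.1 and 209.6 on the ventricular arrays. Both AV arrays stood well above both ventricular arrays, and its log2 fold was 1.61 with an SE of 0.22 (95% interval 1.10 to 2.12, limma adjusted p = 0.00474). With each array left out in turn Lama2 still passed, at log2 folds of 1.35 to 1.88.

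**Figure D1:**
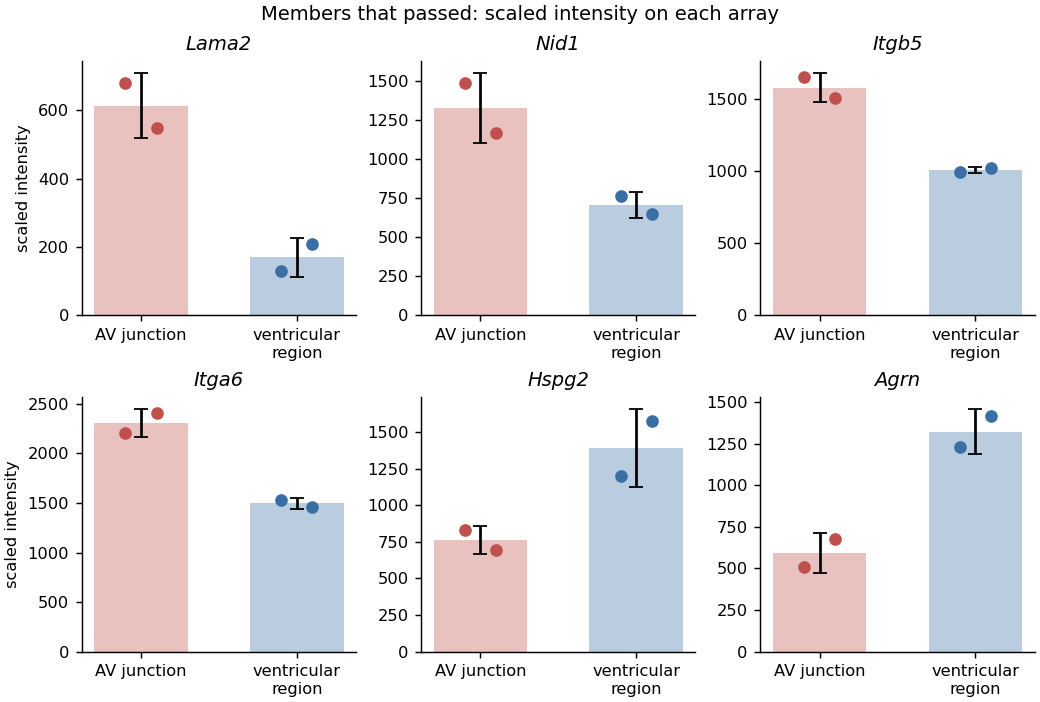
Scaled intensity of the 6 genes that passed, on a linear axis from 0. Points are the 2 arrays of a region, bars their mean and error bars the SD. Lama2, Nid1, Itgb5 and Itga6 lie higher on both AV arrays, and Hspg2 and Agrn lie lower, with no overlap of arrays between regions.

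The other alpha chain genes gave no call. Lama4, a chain of endothelial basement membranes, was bright in both regions. It read 890.3 and 1082 on the AV arrays, against 804.6 and 867 on the ventricular arrays, a log2 fold of 0.22 (95% interval −0.09 to 0.54, limma adjusted p = 0.297). Lama5, found in many fetal and adult basement membranes, read 187.3 and 158.9 on the AV arrays, against 221.6 and 348.5 on the ventricular arrays, a log2 fold of −0.56 (95% interval −1.11 to −0.02, limma adjusted p = 0.15). Lama3, a chain of epithelial laminin, was dim with means of 67.5 ± 3.54 for the AV arrays and 143.2 ± 43.7 for the ventricular arrays (SD, n = 2 each), and gave −0.70 (limma adjusted p = 0.136). Both Lama5 and Lama3 lay lower on both AV arrays. Lama1, a laminin chain of the early embryo, fell under the brightness floor of 100 and was not tested. It was above background on both AV arrays (67 and 100.9) and on 0 of 2 ventricular arrays (21.8 and 6.71). Background was higher on the ventricular arrays (97.9 and 104.3, against 58.6 and 52.6 on the AV arrays), so this contrast gives no bound on the fold.

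The beta and gamma chain genes gave no call by their brightest probe sets. Lamb1, the beta chain of most embryonic laminins, was bright in both regions. It read 3808 and 3402 on the AV arrays, against 3435 and 3245 on the ventricular arrays, with overlapping arrays and a log2 fold of 0.11 (95% interval −0.13 to 0.34). Lamb2, the beta chain of synaptic and kidney basement membranes, gave −0.06 (95% interval −0.57 to 0.44), which turned to 0.09 with median scaling or quantile normalisation. Lamc1, the gamma chain that most laminins share, read 275.1 and 217.2 on the AV arrays, against 131.4 and 323.3 on the ventricular arrays. Its AV arrays lay between its ventricular arrays, and its log2 fold of 0.18 ran from −0.34 without ventricular array 1a to 0.70 without ventricular array 1b. Lamb3, the partner of Lama3 in epithelial laminin, was above background on 1 array only and was not tested.

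Lamc3, a less common gamma chain, was read by 2 probe sets that disagreed. The brighter one read 110.6 and 161.2 on the AV arrays, against 209.2 and 114.7 on the ventricular arrays, with a log2 fold of −0.17 and no pass. The other read 46.2 and 34.2 on the AV arrays, under background on both, against 194.8 and 270.3 on the ventricular arrays. Its log2 fold was −1.64 (95% interval −2.26 to −1.02, limma adjusted p = 0.00955). As a bound, which was not itself tested, the AV level was at least 4.13-fold lower. This bound sets the ventricular mean against the background of the AV arrays. The mean of both probe sets gave −0.90 (limma adjusted p = 0.039). A call for Lamc3 therefore rests on which probe set is read.

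Of the linker and proteoglycan genes, 1 rose and 2 fell. Nid1 read 1481 and 1164 on the AV arrays, against 765.1 and 645.6 on the ventricular arrays. Its arrays did not overlap, and its log2 fold was 0.86 with an SE of 0.15 (limma adjusted p = 0.0127). Nid1 missed narrowly without AV array 1a (log2 fold 0.69, limma adjusted p = 0.0507) and without ventricular array 1b (0.74, adjusted p = 0.0608). Nid2, the second nidogen, read 486.2 and 404.6 on the AV arrays, against 439.2 and 411.8 on the ventricular arrays. Its arrays overlapped, and its log2 fold of 0.05 had a 95% interval of −0.30 to 0.41.

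Agrn, which binds dystroglycan and is known best for gathering acetylcholine receptors at the neuromuscular junction, fell. It read 507.3 and 678.7 on the AV arrays, against 1229 and 1418 on the ventricular arrays. The log2 fold was −1.10 with an SE of 0.16 (95% interval −1.48 to −0.73, limma adjusted p = 0.00611), and Agrn passed with each array left out, at −1.30 to −0.91. Hspg2, which encodes the large proteoglycan perlecan, read 829 and 696.2 on the AV arrays, against 1202 and 1577 on the ventricular arrays. Both AV arrays lay below both ventricular arrays, with a log2 fold of −0.82 and an SE of 0.16 (limma adjusted p = 0.0169). Hspg2 missed without AV array 1b (−0.70, limma adjusted p = 0.0638) and without ventricular array 1b (−0.63, adjusted p = 0.0783). A second Hspg2 probe set, under background on all 4 arrays, was not tested. It ran the other way, with 21.8 and 16.4 on the AV arrays, against 10.4 and 8.38 on the ventricular arrays. On the same arrays all 6 chamber muscle markers were lower in the AV junction. Of 7 epicardial markers the keratin genes Krt18 and Krt19 were lower, at log2 folds of −0.64 and −0.85. The other 5 did not pass, at −0.42 (Upk3b) to 0.13 (Wt1), and the arrays of Wt1, Tbx18, Aldh1a2 and Krt8 overlapped. The part of these cell types in the fall of Agrn and Hspg2 was not tested.

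Promoter sequence was examined for the genes that passed, and a link between sequence and direction of change was not tested. RefSeq's GRCm38.p6 promoter table held 23 of the 36 members and 5 of the 6 that passed. The 250 bases before the start site are shown for the 2 higher and 2 lower genes with the largest log2 folds among those 5, 5′ to 3′ on the gene's own strand. Capitals mark the GC box, GGGCGG or its reverse complement CCGCCC, a motif bound by Sp1 and related factors. The windows are chr10:27616943-27617192 (minus strand) for Lama2, chr13:13437352-13437601 (plus strand) for Nid1, chr4:156197489-156197738 (minus strand) for Agrn and chr4:137468553-137468802 (plus strand) for Hspg2. Agrn has 2 starts in the table and the one farther upstream is shown.
Lama2: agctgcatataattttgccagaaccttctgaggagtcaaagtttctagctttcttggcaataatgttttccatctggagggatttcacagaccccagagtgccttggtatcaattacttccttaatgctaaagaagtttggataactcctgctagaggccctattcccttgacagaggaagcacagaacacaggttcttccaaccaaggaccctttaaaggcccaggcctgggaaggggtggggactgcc
Nid1: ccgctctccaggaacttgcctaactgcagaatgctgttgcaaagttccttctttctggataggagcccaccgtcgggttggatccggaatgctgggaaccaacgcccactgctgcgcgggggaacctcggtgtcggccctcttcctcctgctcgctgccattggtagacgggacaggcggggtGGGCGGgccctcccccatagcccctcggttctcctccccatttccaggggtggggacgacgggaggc
Agrn: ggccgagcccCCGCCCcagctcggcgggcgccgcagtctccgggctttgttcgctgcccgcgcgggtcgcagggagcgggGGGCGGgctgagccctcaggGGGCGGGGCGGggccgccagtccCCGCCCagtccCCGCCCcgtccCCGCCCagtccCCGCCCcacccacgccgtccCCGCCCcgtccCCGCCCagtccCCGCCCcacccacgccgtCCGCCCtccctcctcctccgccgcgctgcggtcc
Hspg2: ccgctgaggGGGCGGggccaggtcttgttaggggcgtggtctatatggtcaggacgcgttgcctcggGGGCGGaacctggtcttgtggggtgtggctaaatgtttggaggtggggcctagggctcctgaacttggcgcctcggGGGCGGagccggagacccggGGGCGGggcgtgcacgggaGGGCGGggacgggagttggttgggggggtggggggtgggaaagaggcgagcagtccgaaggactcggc
The window of Lama2 held 0 GC boxes and that of Nid1 held 1, while Hspg2 held 5 and Agrn 12, some of them overlapping or in repeats. The window of Itgb5, a higher gene that is not shown, held 3 at a GC content of 65.2%. Of all 32851 windows of the same length in the table, 32.7% held at least 1 GC box and 4.1% held 4 or more. The GC content was 47.2% for Lama2, 64.4% for Nid1, 83.6% for Agrn and 70.0% for Hspg2, with a median of 52.4% over all windows, and a GC box is more likely by base composition alone where GC content is high. The TATA box (TATAAA, both strands) and the T-box motif (GGTGTGA, both strands) had 0 matches in these windows and in that of Itgb5, and 12.4% and 3.3% of all windows held them. The E-box CANNTG, which reads the same on both strands, had 1 match in Lama2, 3 in Itgb5 and 0 in the others, against 66.2% of all windows with at least 1. These are matches of letters and not sites of binding.

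Of the integrin alpha subunits, 9 of 14 were tested, and Itga6 alone passed. Itga6 pairs with Itgb1 or Itgb4 to form a laminin receptor. It read 2211 and 2406 on the AV arrays, against 1535 and 1459 on the ventricular arrays. The arrays did not overlap, and the log2 fold was 0.61 with an SE of 0.10 (limma adjusted p = 0.0107). A second probe set of Itga6 gave 0.71 and passed as well (limma adjusted p = 0.0294). Without ventricular array 1b the adjusted p of the brighter probe set rose to 0.0566 at a log2 fold of 0.57.

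Several bright alpha subunits did not pass. Among them was Itgav, which pairs with several beta subunits to bind vitronectin and fibronectin. It read 1666 and 1992 on the AV arrays, against 1602 and 1642 on the ventricular arrays, a log2 fold of 0.16 (95% interval −0.11 to 0.44). Itga3, another laminin receptor subunit, read 380 and 450.8 on the AV arrays, against 555.2 and 414.2 on the ventricular arrays, which overlap, with a log2 fold of −0.19. Itga4, which binds fibronectin and Vcam1 and in mice holds the epicardium to the heart, read 200.7 and 207.1 on the AV arrays, against 144.5 and 41.3 on the ventricular arrays. Its log2 fold of 0.93 did not pass (limma adjusted p = 0.127). It was 1.48 without ventricular array 1a, which passed at an adjusted p of 0.0399, and 0.38 without ventricular array 1b. Itga9, which binds tenascin-C among other ligands, read 119 and 126.4 on the AV arrays, against 188.4 and 256.9 on the ventricular arrays, a log2 fold of −0.65 that did not pass (limma adjusted p = 0.0967). A second, dimmer probe set of Itga9, not tested, ran the other way. It read 97.8 and 139.1 on the AV arrays, both above background, and 81.8 and 10.7 on the ventricular arrays, both under it. Set against the higher ventricular background, its AV level was at least 1.15-fold higher. The fibronectin receptor gene Itga5 was near the floor in both regions (87.8 ± 7.09 against 117 ± 29.8, SD, n = 2 each) and gave −0.27. Muscle laminin receptor gene Itga7 and the nephronectin receptor gene Itga8 were under background on all 4 arrays. The collagen receptor gene Itga2 was above it on 1 array.

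**Figure D2:**
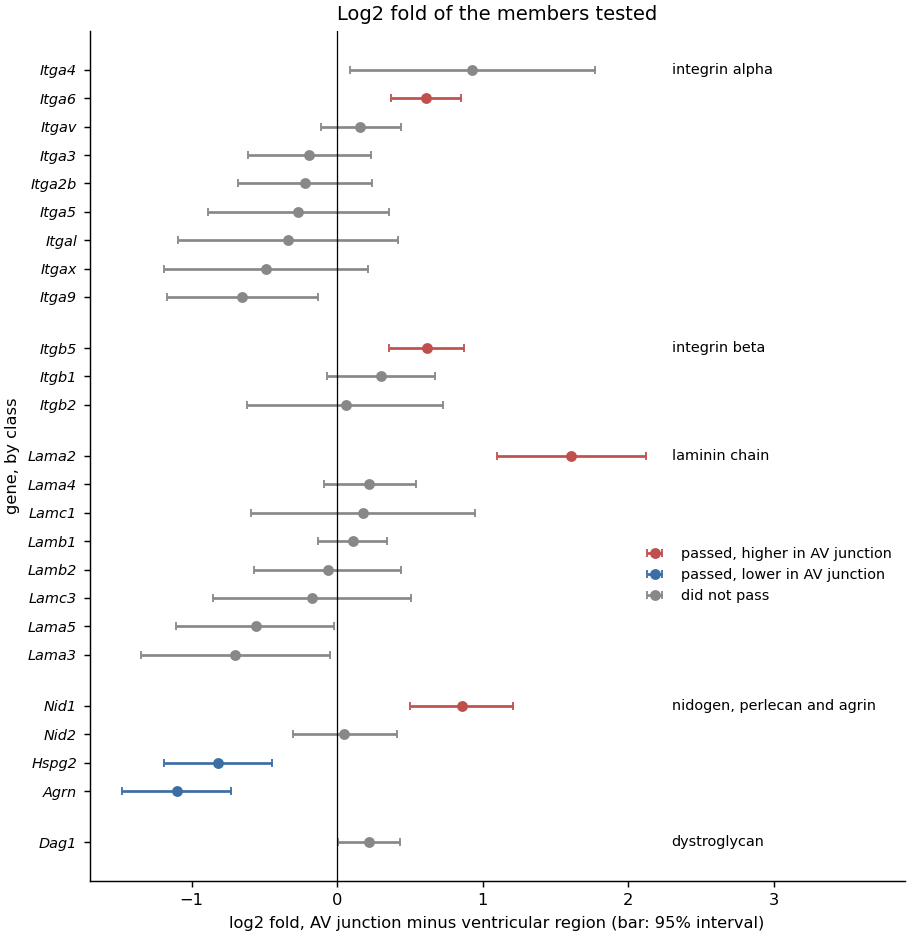
Log2 fold (AV junction minus ventricular region) of the 25 genes tested, grouped by class, with 95% intervals from limma. The 4 genes in red and 2 in blue passed; the interval of Lama2 runs from 1.10 to 2.12, and those of Lama4, Lamb1, Nid2 and Itgb1 include 0.

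Among the integrin beta subunits 3 of 7 were tested, and Itgb5 rose. Itgb5 pairs with Itgav as a receptor for vitronectin. Its brightest probe set read 1652 and 1509 on the AV arrays, against 995 and 1026 on the ventricular arrays, with a log2 fold of 0.62 and an SE of 0.11 (limma adjusted p = 0.0124). All 4 probe sets of Itgb5 were higher in the AV junction and passed, at log2 folds of 0.62 to 1.50. The steepest of them read 499.3 and 525.5 on the AV arrays, against 140.8 and 156.3 on the ventricular arrays (limma adjusted p = 0.00203). The call of the brightest probe set was lost without AV array 1a (log2 fold 0.56, limma adjusted p = 0.0541) and without ventricular array 1a (0.60, adjusted p = 0.0657).

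Itgb1, the beta subunit that most alpha subunits share, was read by a pair of tested probe sets of almost the same brightness, and they gave different calls. The brighter, with a mean of 416.7 over the 4 arrays, read 474.5 and 454.2 on the AV arrays, against 408.3 and 329.7 on the ventricular arrays. Its log2 fold was 0.30 (95% interval −0.07 to 0.67, limma adjusted p = 0.235). The other, with a mean of 416.2, read 528.1 and 499.1 on the AV arrays, against 308.8 and 328.7 on the ventricular arrays, a log2 fold of 0.61 that passed (limma adjusted p = 0.0331). Both probe sets read higher on both AV arrays. The other 4 probe sets of Itgb1 were too dim to test. Itgb4, the partner of Itga6 in hemidesmosomes, was under background on all 4 arrays, as were Itgb6, the epithelial partner of Itgav, and Itgb3 and Itgb7.

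**Figure D3:**
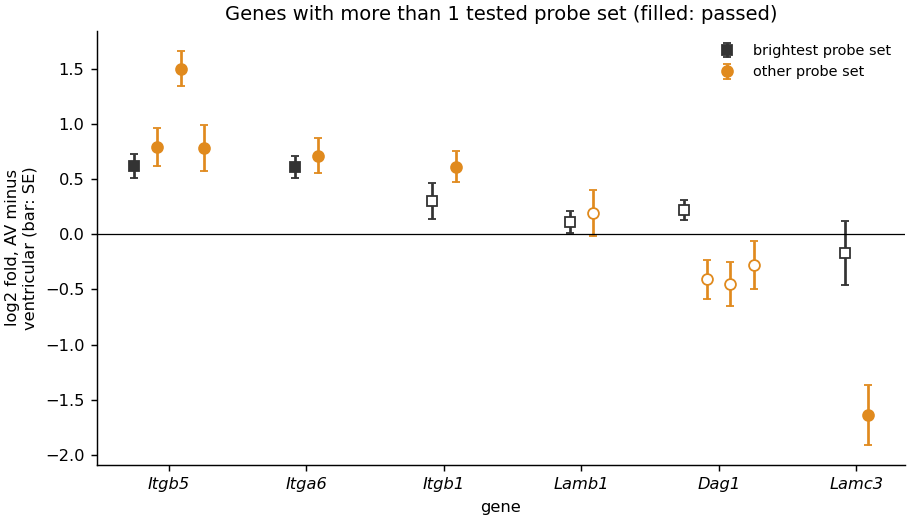
Log2 fold with SE for each tested probe set of the 6 genes with more than 1, where squares are the brightest probe set of a gene, circles the others, and filled symbols passed. The probe sets of Itgb5 and Itga6 all passed on the same side, those of Itgb1 and Lamc3 split between passing and not, and those of Dag1 fall on both sides of 0.

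Integrins of blood cells gave no call. Itga2b, the platelet fibrinogen receptor subunit, read 321.4 and 355.3 on the AV arrays, against 485.1 and 331.7 on the ventricular arrays, with overlap and a log2 fold of −0.22 (limma adjusted p = 0.476). Its partner Itgb3 was under background. The platelet markers, Itga2b among them, summed to 3264 to 3360 on the AV arrays and 4226 to 4299 on the ventricular arrays. Of the 5 tested, 1 was lower, Treml1 at −0.74, and 4 did not pass, among them the brightest, Pf4 (−0.31). The leukocyte subunit genes Itgal, Itgax and Itgb2 lay near the floor, at log2 folds of −0.34, −0.49 and 0.06, and Itgae and Itgam were not tested. Of 8 leukocyte markers, 2 of the 3 tested passed, Laptm5 (1.41) and Csf1r (1.11), both higher in the AV junction.

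Dystroglycan, which binds laminin, agrin and perlecan outside the cell and dystrophin within it, did not pass. Its brightest probe set read 3239 and 3380 on the AV arrays, against 2846 and 2819 on the ventricular arrays. The arrays did not overlap, and the log2 fold of Dag1 was 0.22 (95% interval 0.01 to 0.43, limma adjusted p = 0.149). The other 3 probe sets of Dag1 gave −0.28 to −0.45 and did not pass either, the mean of the 4 gave −0.23, and median scaling of the arrays carried the brightest to 0.38 and a pass (adjusted p = 0.0418).

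Over the 25 genes tested, the AV and ventricular arrays were apart in 16, 9 with the AV arrays above and 7 below. That is 64% of them, against 62.4% of all genes tested. Scaling the arrays to a common median moved the median log2 fold of all genes from −0.06 to 0.10 and that of the members from 0.05 to 0.21, a gap of 0.11 both times. It left the 6 calls in place and added Dag1. It also moved the calls over all genes to 1216 higher and 288 lower, 80.9% of them higher, against 712 higher and 552 lower, 56.3% higher, with the scaling used here.

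Partners and relatives were then set side by side, by taking the difference of their log2 values within each array and comparing it between regions. The 6 pairs were chosen after their values were seen. The values are differences between log2 folds and not between levels, and Lama2 was dimmer than Lamb1 and Lama4 on every array. The log2 fold of Lama2 exceeded that of its laminin partner Lamb1 by 1.50 (SD of the within-array difference 0.09 over the AV arrays and 0.43 over the ventricular arrays, n = 2 each). It exceeded that of Lama4 by 1.39 (0.40 and 0.30). For Nid1 the log2 fold exceeded that of Nid2 by 0.80 (0.07 and 0.10). The log2 fold of Agrn less that of its receptor gene Dag1 was −1.33 (0.23 and 0.15), and −0.83 to −0.65 with the other 3 probe sets of Dag1. That of Itgb5 exceeded the log2 fold of its partner Itgav by 0.46 (0.27 and 0.01), and by up to 1.34 with the other probe sets of Itgb5. For Itga6 over Itgb1 the difference was 0.31 (0.12 and 0.14) with the brightest probe sets. With the other tested probe set of Itgb1 it was 0.00, and the arrays of the regions overlapped. With the brightest probe set of each gene the AV and ventricular arrays did not overlap in any of the 6 pairs. As the pairs were chosen with their values seen, this is no test. The share without overlap was 62.4% for single genes tested and was not computed for other pairs. The exact two-sided permutation p was 0.333, the smallest that 2 against 2 arrays can give (adjusted over the 6 pairs it is also 0.333). No pair is called different.

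Genes that work with these receptors and sheets were counted in 7 lists, 99 genes of which 80 were tested. In all 14 were higher, 9 lower and 57 did not pass, 28.7% passing where 15.0% of all genes did, and the median log2 fold was −0.04. As the lists were chosen with earlier results of these data known, these 2 shares are not a test of enrichment. With median scaling of the arrays the counts were 22 higher and 2 lower, and of the 9 lower genes Ccn2 and Col7a1 passed. With quantile normalisation Npnt, Crk, Ntn1, Sgca and Sdc3 did not pass. Other basement membrane components went both ways. Of 7 basement membrane collagen genes tested, Col18a1, whose product is cut to release endostatin, rose by 0.75 (2719 ± 233.7 against 1599 ± 60.1, SD, n = 2 each, limma adjusted p = 0.00587). Col7a1, which forms anchoring fibrils, fell by 0.96 and Col4a1, a chain of the main type IV collagen network, by 0.40, while 4 did not pass. Of 6 secreted proteins tied to basement membranes, the integrin ligand gene Npnt was higher (0.80), the laminin-like guidance gene Ntn1 lower (−0.94), and 4 did not pass. Both calls ended under quantile normalisation.

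Of 17 tested ligands of integrins other than laminins, 6 rose, 2 fell and 9 gave no pass, at a median log2 fold of 0.29. The largest changes were Postn (2.22), a matrix protein of cushion mesenchyme, Edil3 (at least 2.82-fold higher), which like vitronectin is a ligand of the Itgav and Itgb5 pair, Tgfbi (1.57) and the interstitial collagen gene Col3a1 (1.26). Postn is also among the cushion markers above. The fibronectin gene Fn1 (1.05), the collagen gene Col1a2 (0.89) and the 2 lower genes, Ccn2 (−1.15) and Mfge8 (−0.72), were named after their values were seen. The summed intensity of the 20 genes of this list with a probe set was 28248 to 30694 on the AV arrays and 18527 to 20242 on the ventricular arrays.

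Inside the cell, 28 genes of the integrin adhesome were tested, the proteins that connect integrins to actin and to signalling. Here 5 were higher, 2 lower and 21 did not pass, at a median log2 fold of 0.14. Cav1, the caveolin that associates with integrins, rose by 2.91 (3371 ± 352.5 against 403.1 ± 28.6, SD, n = 2 each, limma adjusted p = 5.52e-05). The kinase gene Fyn rose by 0.71, the kindlin gene Fermt2 by 0.52, the vinculin gene Vcl by 0.51 and the adaptor gene Crk by 0.41. The adaptor gene Lims1 fell by 0.57 and the actinin gene Actn4 by 0.43, and Vcl, Crk and Actn4 were named after their values were seen. Lims1 passed in 6 of 11 alternatives that keep every array. Its call was lost with the mean of its probe sets and without probe sets named _x_at or _s_at. Ilk, the kinase-like hub that binds Lims1, averaged 2481 ± 32.5 over the AV arrays and 2447 ± 162.7 over the ventricular arrays (SD, n = 2 each), a log2 fold of 0.02, and is added here for its tie to Lims1.

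**Figure D4:**
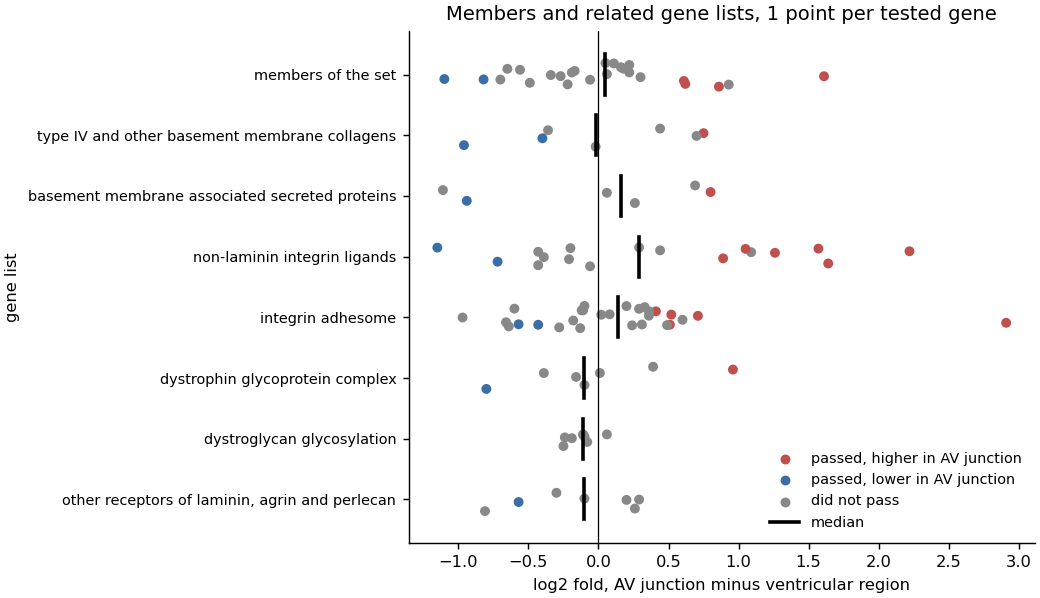
Log2 fold (AV junction minus ventricular region) of each tested gene among the 25 members and in 7 lists of related genes, with a black bar at each median. Medians lie between −0.11 and 0.29, and the highest points are Cav1 at 2.91 and Postn at 2.22.

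Of 7 tested genes of the dystrophin complex, 1 was higher, 1 lower and 5 did not pass. Sgce, the widely expressed sarcoglycan, rose by 0.96 (limma adjusted p = 0.00588) and Sgca, the sarcoglycan of striated muscle, fell by 0.80 (adjusted p = 0.0445). Of 8 tested genes that build the laminin-binding glycan of dystroglycan, limma called 0 higher and 0 lower, where 15.0% of all genes tested passed. With so few genes this is no result about the list. In addition 0 had an unadjusted limma p under 0.05, a share not computed for all genes. The 2 brightest, Pomgnt1 and Rxylt1, gave −0.10 and −0.25. Among 7 other receptors of laminin, agrin and perlecan, the syndecan gene Sdc3 fell by 0.57 and 6 did not pass. Of the 14 higher genes in the lists 9 passed with each array left out, namely Cav1, Postn, Tgfbi, Edil3, Col3a1, Fn1, Sgce, Col1a2 and Col18a1. Of the 9 lower genes 1 did, Ccn2. Tgfbi, read by a probe set named _x_at, did not pass when probe sets named _x_at or _s_at were left out. Col18a1 did not pass without the variance trend. The higher genes Fyn and Crk and the lower genes Col4a1, Actn4 and Sdc3 passed in 0 of the 4 fits that leave out an array. The other 8 passed in 1 or 2 of the 4, and adjusted p-values of limma reached 0.176.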

How the data were processed

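Deposited data hold a linear intensity for each probe set on each of 4 arrays, and the submitters' processing notes name MAS5 as the tool the authors used. Its version is not given in the sources used here, nor are detection calls. The experiment records show 1 chip lot and 1 fluidics station for all arrays, each in its own module. Dissection, RNA pool and amplification went with region and cannot be told apart from it. Of 22690 probe sets 64 are controls, and 20380 have 1 gene symbol in the platform annotation. Probe positions are not reported, as no genome build is named in the files.

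Non-control probe sets of every array were brought to a 2% trimmed mean of 500 by a factor of 3.35. The test took the 13403 probe sets whose 4-array mean reached 100. With limma 3.58.1 in R 4.3.3, lmFit and eBayes (trend on) fitted a single region term to log2 of intensity plus 50, giving 7.43 total degrees of freedom. Adjusted p-values are Benjamini-Hochberg values from this limma fit over all probe sets tested. A gene is its probe set with the highest mean intensity. The names Itgbl1, Itgb2l, Itgb1bp1, Itgb1bp2 and Itgb3bp are not integrin subunits here. The members, the lists and the rule for naming genes (every member, and up to 4 largest changes that passed or else the 2 brightest of each list) were chosen with earlier results of these data known. Every member's fold, the counts and the lists were recomputed with other normalisations, pseudocounts, floors and variance priors, with the replicate letter as a block, with each array left out, and with other rules for probe sets. Arrays sharing a letter deviated together with a correlation of 0.0564 across probe sets, so the letters were not taken as pairs. The fit was tested on simulated data with known changes, where it recovered the large changes and more of its calls were false than the threshold aims at. A fold is a bound where neither array of the dimmer region exceeded background. Promoter windows are RefSeq's, shown in place of the planned protein sequences, which were not used here. Plots used Python 3.11.15 and matplotlib 3.10.9.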

Additional observations from a re-analysis of the deposited data

How the results depend on the processing

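The directions of the 6 genes that passed held under every alternative, and Lama2 and Agrn also passed under every one. Without the variance trend the counts fell to 1 higher (Lama2) and 1 lower member (Agrn), with limma adjusted p-values of 0.0601 to 0.0698 for the other 4, and with no filter 1 lower member was left, as Hspg2 reached 0.0509. With each array left out in turn, where limma takes the lone array to vary like the others, 2 to 4 members were higher and 1 to 2 lower. The higher count was 2 without AV array 1a or ventricular array 1b, and the lower count was 1 without replicate 1b of either region. Itga4 passed without ventricular array 1a, and Dag1 (median scaling) and Lamc3 (mean of probe sets) passed in 1 fit each. The replicate block (a correlation of 0.0564 gives no ground for pairing) changed no member's call and gave 960 higher and 854 lower genes in all.

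Over all genes, 1216 were higher and 288 lower with median scaling, 439 and 272 with no filter, 244 and 209 without the variance trend, and 300 to 390 and 164 to 327 with an array left out. Of the genes in the 7 related lists, 22 were higher and 2 lower with median scaling, 8 and 2 without the trend, 2 lower with no filter, and 10 to 12 higher and 1 to 6 lower with an array left out. Signs turned only for members that did not pass in either fit: Lamb2 (0.09 with quantile normalisation and with median scaling, 0.00 without AV array 1b), Dag1 (−0.23 with the mean of probe sets), and, with 1 array left out, Itga2b (−0.46 to 0.02), Itgb2 (−0.22 to 0.12), Lamb2 (−0.13 to 0.00), Lamc1 (−0.34 to 0.70), Lamc3 (−0.49 to 0.16) and Nid2 (−0.06 to 0.17). Among the pairs, an alternative added after seeing the data, other probe sets took the difference of Itga6 and Itgb1 to 0.00. The cause of these changes was not tested. Over all members' log2 folds, 323 recomputed values kept direction and side of the threshold, 12 lost the call, 3 gained one and 11 changed sign. MAS5 values near background limit what can be said of the 11 members not tested.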
